A study of Rattus norvegicus with 12 samples.

Results

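Expression of phosphate and calcium transport genes and of klotho was compared between choroid plexus of rats in their light phase and of rats in their dark phase. The choroid plexus is the folded tissue in the brain ventricles whose epithelium secretes cerebrospinal fluid. The genes were given as 6 symbols, and a symbol was kept where the tables of the study pair it with an Ensembl identifier. This left 5 genes of the 32883 quantified, namely SLC20A2, SLC24A4, KL, ATP2B1 and ATP2A2. No pairing was held for SLC20A1, so it was not analysed here. All animals were male Sprague-Dawley rats 9 weeks old with no treatment other than the anesthesia shared by both groups. In 6 rats the tissue was taken at zeitgeber time 8 h, in the light, and in 6 others at zeitgeber time 20 h, in darkness. Each library came from 1 rat and held whole choroid plexus of the lateral ventricles and the fourth ventricle, so that epithelium, stroma, vessels and blood were measured together. With 1 time point in each phase, the data describe a contrast of both times and not the course of a rhythm.

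Inorganic phosphate enters cells mainly through sodium-driven cotransporters, and SLC20A2 encodes one of them, PIT2. Loss of PIT2 in humans causes calcium phosphate deposits in the brain, known as primary familial brain calcification. Calcium is kept low in the cytosol by pumps and exchangers. SLC24A4 encodes NCKX4, which moves calcium out of the cell in exchange for sodium with potassium. ATP2B1 encodes PMCA1, a calcium ATPase of the plasma membrane, and ATP2A2 encodes SERCA2, the calcium ATPase that fills the endoplasmic reticulum. KL encodes klotho, the co-receptor through which the phosphate-lowering hormone FGF23 acts, and the choroid plexus epithelium is known as one of its main sites of expression.

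All 5 genes were up-regulated in the dark phase, by 20.2 to 37.6% of the light-phase mean. SLC24A4 had the largest change and ATP2B1 the smallest. All were called at an FDR below 0.05 by limma, a linear model fitted to log2 values across the 12513 genes that had a mean of at least 1 TPM (transcripts per unit of library total, corrected for transcript length). Of all these genes, 17.7% were called in either direction 9.89% with the higher mean in darkness and 7.78% with the higher mean in light. The median log2 fold change was 0.33 over the 5 genes, -0.0025 over all genes tested and 0.27 over the 1238 genes called higher in the dark phase. In 4 of the 5 genes no dark-phase value reached down to the light-phase range. Such a gap, with darkness higher, was found in 5.31% of the genes tested, and a gap in either direction in 8.74%. Among the 1983 tested genes of the study's expression ranking, through which these 4 were paired, it was 5.24% with darkness higher. The exception was ATP2B1. Only ATP2B1 had been paired solely through the lists of genes that the study called on these same libraries. The other 4 were also in those lists, and the genes were chosen with earlier results of these data known. None of the 5 calls was thus an independent one, and the shares over all genes are given as background and not as a test. All values below are TPM divided by a scaling factor for each library, and fold changes are on the scale of log2(scaled TPM + 0.5), positive where the dark phase is higher. In whole tissue, a change in the share of a cell type and a change of RNA per cell cannot be told apart.

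**Figure D1:**
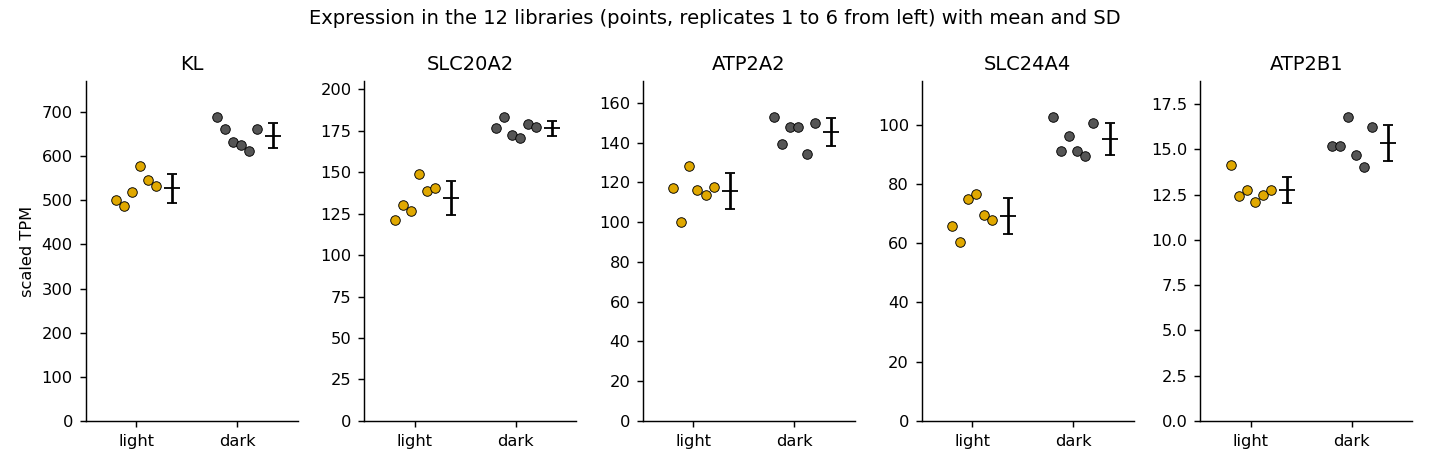
Scaled TPM (y-axis, from 0, with its own scale in each panel) of the 5 genes in 6 light-phase libraries (yellow) and 6 dark-phase libraries (grey), with replicates 1 to 6 from left to right and the mean and SD beside them. The phases are separate in 4 genes, and in ATP2B1 light-phase replicate 1 at 14.1 reaches into the dark-phase range.

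The sequences around the transcription start were available for 4 of the genes, from RefSeq on the assembly GRCr8, and are shown because these genes moved in the same direction and clock-controlled genes often carry short binding motifs near their start. Each runs 5′ to 3′ on the plus strand from 250 bases before to 50 bases after the start. They lie at chr6:127044220-127044519 (SLC24A4), chr12:5325753-5326052 (KL), chr7:35622211-35622510 (ATP2B1) and chr12:39733269-39733568 (ATP2A2). Capitals mark the E-box, the motif bound by CLOCK and BMAL1.

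SLC24A4: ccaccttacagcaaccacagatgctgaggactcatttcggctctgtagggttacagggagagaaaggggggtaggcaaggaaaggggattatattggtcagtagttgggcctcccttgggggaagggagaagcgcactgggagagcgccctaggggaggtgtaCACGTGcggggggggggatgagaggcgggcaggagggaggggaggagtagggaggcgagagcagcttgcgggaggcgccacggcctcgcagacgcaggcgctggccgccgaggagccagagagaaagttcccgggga

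KL: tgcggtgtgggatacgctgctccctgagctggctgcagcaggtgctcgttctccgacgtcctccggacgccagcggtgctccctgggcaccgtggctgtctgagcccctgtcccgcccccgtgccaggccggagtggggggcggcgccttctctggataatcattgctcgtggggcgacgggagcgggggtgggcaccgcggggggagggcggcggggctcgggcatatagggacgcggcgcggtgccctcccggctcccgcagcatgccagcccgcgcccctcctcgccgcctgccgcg

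ATP2B1: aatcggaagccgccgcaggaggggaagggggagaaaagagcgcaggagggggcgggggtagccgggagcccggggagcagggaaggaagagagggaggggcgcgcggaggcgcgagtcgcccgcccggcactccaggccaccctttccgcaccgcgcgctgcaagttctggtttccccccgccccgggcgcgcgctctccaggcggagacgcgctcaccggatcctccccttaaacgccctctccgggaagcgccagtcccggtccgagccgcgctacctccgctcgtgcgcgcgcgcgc

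ATP2A2: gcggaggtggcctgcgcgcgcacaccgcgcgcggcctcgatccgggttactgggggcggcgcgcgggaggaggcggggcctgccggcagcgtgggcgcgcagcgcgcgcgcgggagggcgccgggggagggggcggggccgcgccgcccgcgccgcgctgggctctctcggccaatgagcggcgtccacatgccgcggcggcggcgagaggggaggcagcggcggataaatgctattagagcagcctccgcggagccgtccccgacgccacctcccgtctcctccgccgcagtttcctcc

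The E-box, searched as CACGTG, which reads the same on both strands, was present in 1 of the 4 windows, that of SLC24A4, from position -87 to -82 relative to the start. Of the 33469 promoter windows of this length, 6.42% held it. The D-box letters TTATGTAA (in 0.893% of the windows on either strand) and TTACGTAA (0.12%) and the AGGTCA core of the ROR and REV-ERB element (16.2%) were in none of the 4 windows. Both D-box forms differ in a single letter, and the E-box shares the run ACGT with TTACGTAA. A match is a run of letters and not a measured binding site, and a missing match says nothing about the factors. The windows of KL, ATP2B1 and ATP2A2 were rich in G and C, with 75%, 74.3% and 79% against a median of 51.7% over all windows. They held 35, 42 and 52 CG dinucleotides, where the median window held 7. The window of SLC24A4 had 64% G and C and 16 CG dinucleotides.

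SLC20A2 was the only listed sodium-driven phosphate cotransporter with an identifier. Its expression in the light phase ranged from 121 to 149 scaled TPM with a median of 134, and in the dark phase from 171 to 183 with a median of 177. The lowest dark-phase library thus lay above the highest light-phase library, and the spread was wider in the light phase. The means were 134 ± 10.2 and 177 ± 4.44 scaled TPM (SD, n = 6 rats each), a rise of 31.5%. The log2 fold change was 0.40 with a standard error of 0.05 and a 95% confidence interval from 0.29 to 0.50 (limma FDR = 0.000136). A two-sided exact permutation test of the difference between the means gave p = 0.00216, the smallest that 6 libraries against 6 allow.

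Of the 10 phosphate transport genes listed beside SLC20A2, 2 had an identifier. SLC25A3, the phosphate carrier of the mitochondrial inner membrane, had 662 ± 24.5 scaled TPM in light and 645 ± 21.5 scaled TPM in darkness (SD, n = 6 rats each). This difference was within the spread between libraries (log2 fold change -0.04, 95% confidence interval -0.12 to 0.04, limma FDR = 0.532). KIDINS220, a partner of the phosphate exporter XPR1, rose by 15.6%, from 17.7 ± 0.788 to 20.5 ± 0.606 scaled TPM (SD, n = 6 rats each; limma FDR = 0.00305). It had been paired only as a gene that the study called. Of the genes listed for primary familial brain calcification, only MYORG had an identifier besides SLC20A2. It was paired only through the study's lists of called genes. It had 7.63 ± 1.17 and 8.90 ± 1.28 scaled TPM (SD, n = 6 rats each) and was not called (log2 fold change 0.21, limma FDR = 0.191).

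KL was the most expressed of the 5 genes. It ranged from 487 to 578 scaled TPM in the light phase, with a median of 526, and from 611 to 688 in the dark phase, with a median of 646. The phases did not overlap. The mean rose by 22.6%, from 527 ± 32.6 to 646 ± 28.5 scaled TPM (SD, n = 6 rats each), a log2 fold change of 0.30 with a standard error of 0.05 (95% confidence interval 0.19 to 0.40, limma FDR = 0.00101, exact permutation p = 0.00216).

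Of 21 other genes of klotho and mineral hormone signalling, 3 had an identifier. FGFR1 and FGFR2 encode receptors for fibroblast growth factors. FGFR2 was lower in the dark phase, at 182 ± 16.6 against 218 ± 22.8 scaled TPM (SD, n = 6 rats each), with overlapping phases (log2 fold change -0.26, limma FDR = 0.0304). This call did not hold without light-phase replicate 4, 5 or 6 or dark-phase replicate 2, 4 or 6 (limma FDR = 0.061 to 0.0668). FGFR1 had 79.4 ± 5.65 and 73.2 ± 2.65 scaled TPM (SD, n = 6 rats each) and was not called (log2 fold change -0.11, limma FDR = 0.11). ADAM17, a membrane protease that can release the outer part of klotho from the cell surface, rose from 14.4 ± 0.821 to 17.2 ± 0.975 scaled TPM (SD, n = 6 rats each; limma FDR = 0.00463), and was likewise paired only as a called gene.

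SLC24A4 had the largest relative change of the 5 genes. In the light phase it ranged from 60.5 to 76.6 scaled TPM with a median of 68.6, and in the dark phase from 89.5 to 102 with a median of 93.6. The gap between the highest light-phase and the lowest dark-phase library was larger than the SD of either phase. Its mean rose by 37.6%, from 69.2 ± 5.97 to 95.1 ± 5.50 scaled TPM (SD, n = 6 rats each), a log2 fold change of 0.46 with a standard error of 0.06 (95% confidence interval 0.33 to 0.59, limma FDR = 0.000218, exact permutation p = 0.00216). No identifier was held for the other sodium-calcium exchanger genes listed, SLC8A1 to SLC8A3 and the 4 other SLC24A genes.

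ATP2B1 was the least expressed of the 5 genes and had the smallest change. It ranged from 12.1 to 14.1 scaled TPM in the light phase, with a median of 12.6, and from 14.1 to 16.8 in the dark phase, with a median of 15.2. Light-phase replicate 1, the library with the highest estimated depth, stood above the other light-phase libraries, and dark-phase replicate 5 fell just below it. The means were 12.8 ± 0.713 and 15.4 ± 0.995 scaled TPM (SD, n = 6 rats each), a rise of 20.2% (log2 fold change 0.26, standard error 0.05, 95% confidence interval 0.14 to 0.37, limma FDR = 0.00463, exact permutation p = 0.00433). Without light-phase replicate 1 the log2 fold change was 0.28 (limma FDR = 0.0029). With the library covariate described below it was 0.16, and ATP2B1 was not called (limma FDR = 0.297).

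ATP2B1 made up a small part of the plasma membrane calcium pump transcripts. ATP2B3 was the most expressed of the 4 pump genes, with 292 ± 17.7 scaled TPM in light and 330 ± 17.3 in darkness (SD, n = 6 rats each; log2 fold change 0.17, limma FDR = 0.0241). ATP2B2 had 62.2 ± 4.18 and 72.8 ± 3.45 scaled TPM (SD, n = 6 rats each; log2 fold change 0.23, limma FDR = 0.00602). ATP2B4 had 18.3 ± 1.90 and 24.2 ± 2.94 scaled TPM (SD, n = 6 rats each; log2 fold change 0.39, limma FDR = 0.01), and like ATP2B1 was paired only as a called gene. The 2 pump genes paired by expression, ATP2B2 and ATP2B3, were thus called higher in the dark phase, as were 9.43% of all genes so paired. With the library covariate described below neither of them was called (limma FDR = 0.124 and 0.174). With a block for the replicate number ATP2B3 was not called either (limma FDR = 0.0527), while ATP2B2 was. The call of the other 2 pump genes was not independent of their pairing. Summed over the 4 genes, expression was 386 ± 19.5 scaled TPM in light and 442 ± 20.1 scaled TPM in darkness (SD, n = 6 rats each; exact permutation p = 0.00216). ATP2B1 held 3.32 ± 0.242% of this sum in light and 3.47 ± 0.191% in darkness (SD, n = 6 rats each). ATP2B3 held 75.8 ± 1.35% and 74.6 ± 1.16%. The share of ATP2B4 was 4.75 ± 0.396% and 5.47 ± 0.520% (two-sided exact permutation test, p = 0.0281, or 0.113 adjusted over the 4 shares), and none of the 4 shares passed 0.05 after adjustment. The shares were chosen as a measure after the levels had been seen. The tests of the sum and of the shares include ATP2B1 and ATP2B4, so they were not independent of that pairing either. NPTN and BSG, membrane glycoproteins that partner these pumps, were not called (log2 fold change -0.06 and -0.01, limma FDR = 0.19 and 0.948).

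**Figure D2:**
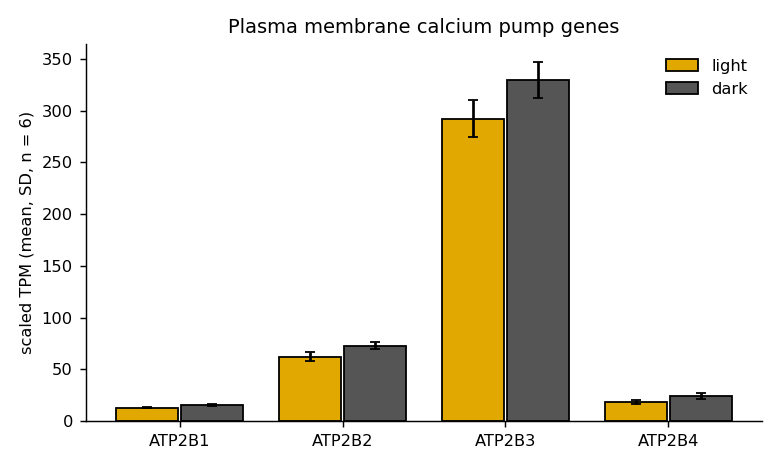
Scaled TPM (y-axis, from 0) of the 4 plasma membrane calcium pump genes, with bars for the mean of 6 light-phase (yellow) and 6 dark-phase (grey) libraries and lines for 1 SD. ATP2B3 stands at 292 and 330, far above the other 3, and each mean is higher in the dark phase.

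ATP2A2 ranged from 100.1 to 128 scaled TPM in the light phase, with a median of 117, and from 134 to 153 in the dark phase, with a median of 148. The phases did not overlap, and light-phase replicate 2 was the lowest of the 12 libraries. The mean rose by 25.6%, from 116 ± 9.08 to 145 ± 7.06 scaled TPM (SD, n = 6 rats each), a log2 fold change of 0.33 with a standard error of 0.05 (95% confidence interval 0.21 to 0.45, limma FDR = 0.00127, exact permutation p = 0.00216). With the library covariate described below the log2 fold change was 0.36, and ATP2A2 was not called (limma FDR = 0.0506).

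Besides ATP2A2, 12 of 25 genes listed for the calcium stores of the endoplasmic reticulum and Golgi had an identifier, and they moved in both directions. CALR, the luminal calcium-binding chaperone calreticulin, rose by 54.2%, from 677 ± 20.8 to 1044 ± 33.0 scaled TPM (SD, n = 6 rats each; log2 fold change 0.62, limma FDR = 2.04e-07). ATP2C1, the calcium and manganese pump of the Golgi, rose from 53.0 ± 2.24 to 62.6 ± 2.31 scaled TPM (SD, n = 6 rats each; log2 fold change 0.24, limma FDR = 0.000999), and the chaperone calnexin, CANX, also rose (log2 fold change 0.18, limma FDR = 0.00338). Lower in the dark phase were STIM2, a sensor of calcium in the endoplasmic reticulum, at -0.19 on the log2 scale (limma FDR = 0.00329), and TMCO1, a calcium leak channel of that compartment, at -0.15 (limma FDR = 0.00612). ORAI2, a store-operated calcium channel paired only as a called gene, fell from 9.71 ± 1.3 to 7.26 ± 0.961 scaled TPM (SD, n = 6 rats each; limma FDR = 0.0152). TMBIM6, an abundant membrane protein of the endoplasmic reticulum, had 486 ± 32.8 and 486 ± 25.6 scaled TPM (SD, n = 6 rats each; limma FDR = 0.999). The remaining 5 genes were not called.

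Among calcium entry channels, 4 of 12 listed had an identifier, of which TRPV4 alone was paired by expression and 3 only as called genes. TRPV4, an osmosensitive cation channel, rose by 32.2% from 60.0 ± 5.44 to 79.3 ± 5.80 scaled TPM (SD, n = 6 rats each; log2 fold change 0.40, limma FDR = 0.00113). The polycystin genes PKD1 and PKD2 and the channel kinase gene TRPM7 had log2 fold changes of 0.22, 0.22 and 0.13, and their calls were not independent of that pairing. TRPM7 was not called with TPM as deposited (limma FDR = 0.0598) or without light-phase replicate 4 or 6 or dark-phase replicate 1, 3 or 6 (limma FDR = 0.056 to 0.0633). The calcineurin subunit PPP3R1 was not called (log2 fold change 0.06, limma FDR = 0.427). Of the mitochondrial calcium genes, SMDT1 and VDAC1 were not called (limma FDR = 0.978 and 0.927).

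The lists held 103 symbols beside the 6 given, of which 30 had an identifier, so no statement covers the lists as a whole. For 22 of the 30 the identifier came from the study's table of genes ordered by expression, which does not depend on the phase contrast. Of these 22, 6 were called with darkness higher, 3 with light higher and 13 were not called. Among all 1983 tested genes paired by that table, 9.43% were called with darkness higher and 13.1% with light higher, 22.5% in all. The other 8 were paired only through the lists of called genes, and 6 of them were higher in the dark phase, 1 was higher in the light phase and 1 was not called. The called genes among the 22 that were higher in the dark phase were 2 plasma membrane pumps, the Golgi pump, calreticulin, calnexin and TRPV4, and those lower were FGFR2, STIM2 and TMCO1.

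**Figure D3:**
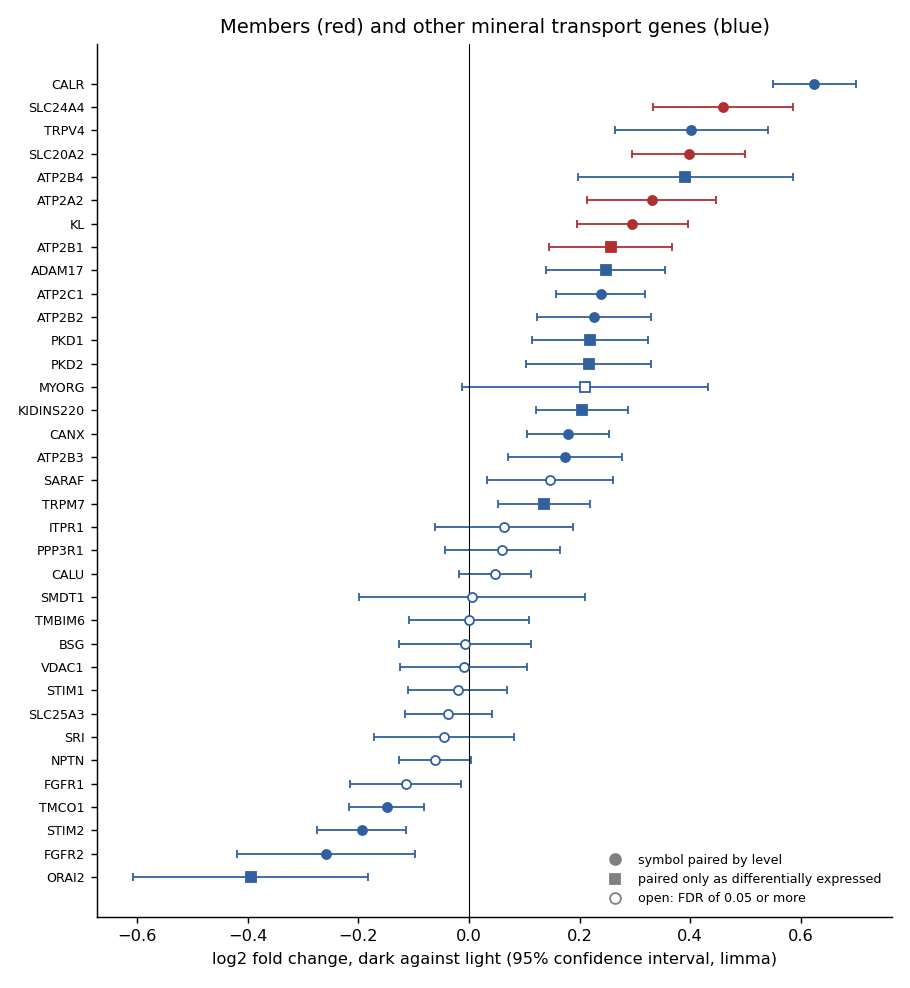
Log2 fold change, dark against light phase (x-axis), with limma's 95% confidence interval for the 5 genes (red) and the 30 other genes with an identifier (blue), where squares mark symbols paired only through lists of called genes and open symbols an FDR of 0.05 or more. SLC24A4 at 0.46 and SLC20A2 at 0.40 lie near the upper end, below CALR at 0.62, and ORAI2 at -0.39 lies at the lower end.

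The order of the levels was the same in both phases, with KL highest, followed by SLC20A2, ATP2A2, SLC24A4 and ATP2B1. TPM corrects for transcript length, so that levels of different genes can be set side by side. SLC20A2 and ATP2A2 were the only neighbours whose order was not the same in all 12 libraries, with SLC20A2 higher in 11. In the light phase their ranges overlapped, and in the dark phase they did not. KL exceeded SLC20A2 by 3.93 ± 0.159 times in light and by 3.66 ± 0.158 times in darkness (SD of the ratio, n = 6 each). The ratio of SLC24A4 to ATP2B1 was 5.44 ± 0.631 and 6.21 ± 0.341 (SD, n = 6 rats each). The ratios are given as descriptions.

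Within a phase, the 5 genes did not vary as 1 group from rat to rat. Light-phase replicate 4 was the highest light-phase library for KL, SLC20A2 and SLC24A4, and the lowest for ATP2B1. Light-phase replicate 2 was the lowest for KL, SLC24A4 and ATP2A2. These libraries had the most extreme scaling factors, and in TPM as deposited SLC24A4 was highest in replicate 3 (75.1 against 72.0 in replicate 4) and KL lowest in replicate 1 (510.2 against 513.6 in replicate 2), while the other ranks held. With the phase means removed, Pearson's r over the 12 libraries was 0.71 between SLC20A2 and KL, 0.78 between SLC24A4 and KL and 0.79 between SLC24A4 and ATP2A2. It was -0.54 between SLC20A2 and ATP2B1 and -0.14 between SLC20A2 and ATP2A2. In TPM as deposited, compared after the data had been seen, these values were 0.48, 0.69, 0.73, -0.52 and -0.62 in the same order. These are descriptions among 10 pairs of genes, whose values share the library and its scaling factor.

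**Figure D4:**
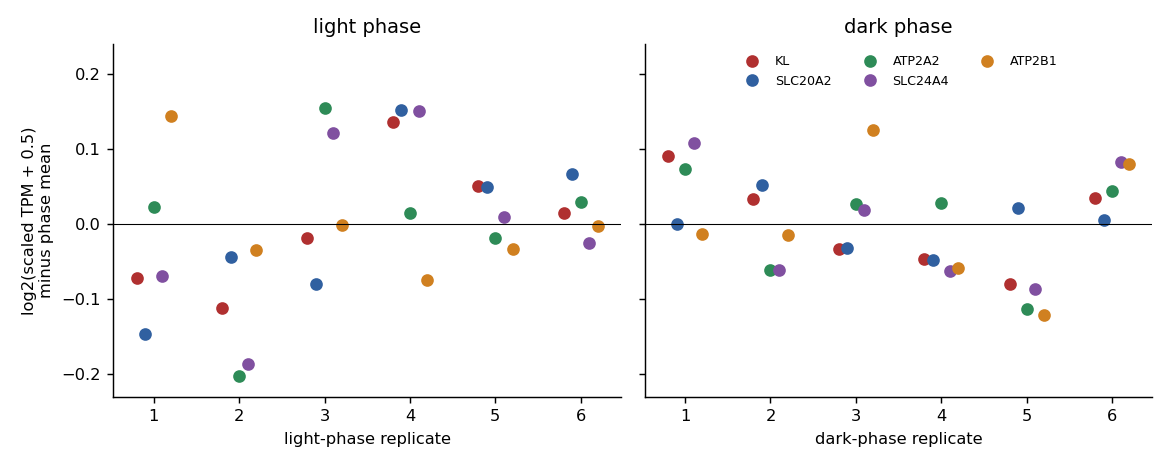
Deviation of each library from its phase mean (y-axis, log2 of scaled TPM + 0.5) for the 5 genes, by light-phase replicate (left) and dark-phase replicate (right). The replicate numbers are not known to carry an order or to link the phases. Light-phase replicate 4 is high for KL, SLC20A2 and SLC24A4 and low for ATP2B1.

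The genes with the most similar pattern were sought among 3048 genes with a symbol and a mean of at least 10 TPM, the 5 genes themselves left out, by Pearson's r of log2 scaled TPM over the 12 libraries. Because the phases differed in all 5 genes, r after removal of the phase means is given with it. For SLC20A2 these were IER5 (r = 0.98, and 0.82 with phase means removed) and PDCD7 (0.97 and 0.77). For SLC24A4 they were MTSS2 (0.98 and 0.87) and TMEM50B (0.97 and 0.84), and for KL they were CREB3L1 (0.96 and 0.79) and MTSS2 (0.96 and 0.79). CYLD (0.98 and 0.91) and CYFIP2 (0.96 and 0.87) were closest to ATP2B1. TMEM50B (0.97 and 0.87) and AHCYL1 (0.97 and 0.90) were closest to ATP2A2. MTSS2 rose from 32.3 ± 1.84 to 46.8 ± 2.79 scaled TPM and TMEM50B from 38.2 ± 2.36 to 46.2 ± 2.00 scaled TPM (SD, n = 6 rats each). The symbols came from the study's gene tables, which include its lists of called genes, so genes that differ by phase were over-represented among the candidates. The search was made on scaled TPM only, and each r is that of the 2 closest of 3048 genes.

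Facts of the libraries were compared with the phases. Relative read depth, estimated from FPKM steps of short genes seen in few libraries, ranged from 0.883 to 1.39 of the mean in light and from 0.905 to 1.10 in darkness. The number of reads behind a value is not known, and precision was taken from the spread between rats. All 10 marker genes of choroid plexus epithelium were expressed, TTR alone holding 25.4 to 31.0% of the TPM of each library as deposited. Their summed level was 256507 to 341977 scaled TPM in light and 298847 to 329161 in darkness, and of the 10 genes CLIC6, PRLR and OTX2 were called with darkness higher and SLC4A5 and AQP1 with light higher, all 5 named after their values were seen. TTR (limma FDR = 0.905) and IGFBP2 (0.953), the most expressed of them, were not called. Of the markers of other cell types few had an identifier, with none for neurons or astrocytes, and no marker that had one was at 0. The 3 hemoglobin genes summed to 7506 to 28023 scaled TPM in light and 4228 to 10983 in darkness, and 0 were called (at an unadjusted p below 0.05, also 0). TAGLN, 1 of 2 mural cell genes, fell from 54.5 ± 21.2 to 31.2 ± 4.14 scaled TPM (SD, n = 6 rats each; limma FDR = 0.0272), while RGS5 was not called (0.911). Their sum was 172 to 399 scaled TPM in light and 163 to 247 in darkness. DCN of fibroblasts (limma FDR = 0.894), PLVAP of endothelium (0.476), RARRES2 of ependyma (0.695) and PTPRC of macrophages (0.052) were not called, and FLT1 of endothelium was called higher in the dark phase (log2 fold change 0.35, limma FDR = 0.000144). FLT1 and PTPRC were paired only through the lists of called genes. The part of these cell types in the results was not tested.

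The quotient of summed FPKM and summed TPM in a library, which depends on the length of the transcripts expressed, was 0.953 to 0.987 in light and 0.934 to 0.960 in darkness. With this quotient as a covariate, SLC20A2 (log2 fold change 0.50, limma FDR = 0.00163), SLC24A4 (0.51, 0.0131) and KL (0.37, 0.0147) were called. ATP2A2 (0.36, limma FDR = 0.0506) and ATP2B1 (0.16, limma FDR = 0.297) were not. Of the other list genes, CALR remained called with it and no others. Under each of the other 23 alternatives, which include leaving out each library in turn, all 5 genes were called higher in the dark phase.

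**Figure D5:**
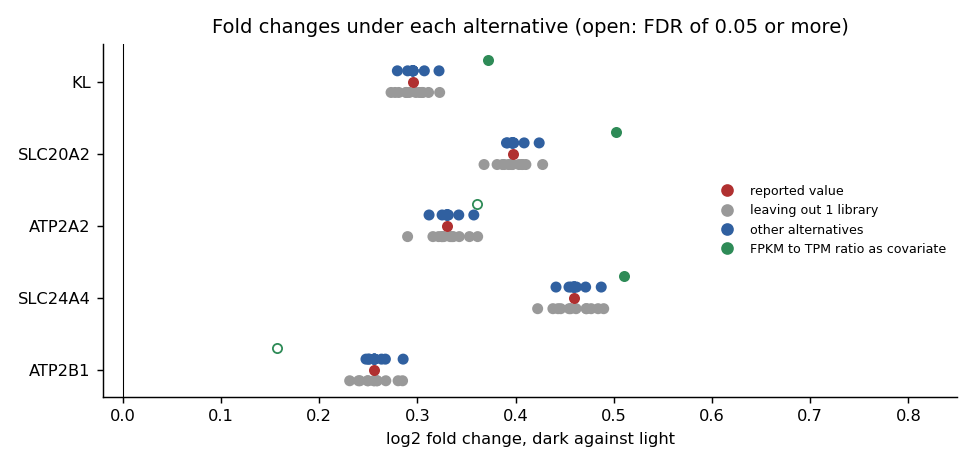
Log2 fold change, dark against light phase (x-axis), of the 5 genes as reported (red), without each library in turn (grey), under other alternatives (blue) and with the quotient of FPKM and TPM as covariate (green), with open circles for an FDR of 0.05 or more. All values lie above 0, and the open circles are those of ATP2A2 at 0.36 and ATP2B1 at 0.16 with that covariate.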

How the data were processed

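RNA from whole choroid plexus of 12 rats was sequenced, with 1 library per rat and a nominal output of 12 Gb of paired-end 150 bp reads. The authors mapped the reads to Rnor_6.0 with STAR 2.7.9a and quantified genes with RSEM 1.3.3. The authors' deposited TPM were the values analysed, and the deposited FPKM served for the relative depth and the covariate. The study tested read counts, and because only TPM and FPKM were used here, limma was applied to log2 values.

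Each library was divided by a trimmed mean of ratios (30% of ratios and 5% of levels trimmed at each end), 0.5 TPM was added, and genes averaging 1 TPM or more as deposited were kept. The model held the phase alone, with a variance trend and Benjamini-Hochberg adjustment over all genes tested at an FDR of 0.05. R 4.3.3, limma 3.58.1, Python 3.11.15, numpy 2.4.6, pandas 2.3.3 and scipy 1.17.1 were used, and the fit was tested on simulated data. The exact tests of the members and of the pump sum are unadjusted, without the adjustment over members first planned. Those of the pump shares were adjusted over the 4 shares.

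Symbols came from the study's gene tables only (3680 identifiers), and 10 symbols with more than 1 identifier were left out. A few listed genes are not reported here. The members, lists and rules were chosen with earlier results of these data known. All members were named, with the called list genes of smallest p (at most 6 a list), the 2 most expressed of each list, and the 2 most similar genes per member. ORAI2, FGFR1 and NPTN fall outside this rule and were named after their values were seen, and no alternatives were run for them singly. No 2 libraries held identical values. Alternatives were other scalings, added values, filters, variance models, weights, a replicate block, a covariate and leaving out each library. Stranded counting is not given in the sources used here.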

Additional observations from a re-analysis of the deposited data

Results flagged for a closer look

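Values were marked where the gap to the next library was too large a part of the range of the 6 libraries of a phase by Dixon's 95% criterion, which chance alone would do in about 5% of groups. In 54 groups, from the members and the other named transport genes, 4 values were marked. ATP2B1 stood at 14.1 scaled TPM in light-phase replicate 1, where the other light-phase libraries had at most 12.7. STIM2 stood at 113 scaled TPM in light-phase replicate 4, against 103.7 in the next library. MYORG had 9.78 scaled TPM in light-phase replicate 3, against 7.80 in the next, and PPP3R1 had 80.2 scaled TPM in dark-phase replicate 4, against 73.8 in the next.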

How the results depend on the processing

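With the quotient of FPKM and TPM as covariate, 346 genes were called in place of 2212, and 3 of the 5 members in place of 5, since ATP2B1 (log2 fold change 0.16) and ATP2A2 (0.36) were not called. With it, 1 gene was called in the phosphate list, 1 in the klotho list, 1 in the calcium extrusion list, 1 in the calcium store list and 0 in the calcium entry list, in place of 2, 3, 5, 7 and 4. The cause was not tested. Some folds kept their size while the standard error grew, as for TRPV4 (0.40, standard error 0.11 in place of 0.06) and ATP2B4 (0.40, 0.15 in place of 0.09), while PKD1 fell to 0.10 from 0.22. With a replicate block, MYORG was called (limma FDR = 0.0421), making 2 brain calcification genes in place of 1. FGFR2 (0.0877), ATP2B3 (0.0527) and TRPM7 (0.0733) lost their calls with the block, leaving 2 klotho, 4 extrusion and 3 entry channel genes, and 1593 genes over the whole table. It changed no call of a member. The labels do not say whether the replicate numbers link animals of both phases. Libraries with the same number deviated from their phase means with r between -0.11 and 0.05. In 0 of 6 cases was the same number the best match. Such low values do not show that the numbers are without meaning.

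Without each library in turn, 1714 to 2238 genes and all 5 members were called. Genes that were not called, and lay near 0, changed sign. BSG had log2 fold changes of 0.0044 as deposited, 0.019 without TTR and the mitochondrial genome, 0.00088 with library weights and 0.053 with the covariate. In the same order without the weights, TMBIM6 had 0.011, 0.026 and 0.044, and VDAC1 had 0.0020, 0.017 and 0.0030, while SLC25A3 had 0.020 with the covariate. Without each library, BSG ranged from -0.038 to 0.019, TMBIM6 from -0.026 to 0.027, VDAC1 from -0.034 to 0.018 and SMDT1 from -0.064 to 0.065. Of 648 recomputed fold changes, 585 kept their direction and their side of the threshold. Precision rests on the spread between 6 rats per phase, since the depth in reads is not known.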
